A study of Homo sapiens with 9 samples.

Results

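Histone genes encode the proteins that package DNA. An octamer of H2A, H2B, H3 and H4 forms the core of the nucleosome, and H1 binds the linker DNA between nucleosomes. Most histone genes lie in clusters, are transcribed mainly in S phase when new DNA is packaged, and give mRNAs that end in a stem-loop bound by SLBP in place of a poly(A) tail. Replacement variants such as H2AX, H2AZ1, H2AZ2, H2AJ, H3-3A and H1-10 are expressed outside S phase as well, and give polyadenylated mRNAs, though H2AX gives a stem-loop mRNA too.

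Genes were taken as histone genes when their annotated symbol had the form of a histone gene name (H1, H2A, H2B, H3 and H4 genes under their current symbols or the older HIST symbols). No measured value entered that choice. It found 56 of 19775 genes with a probe set of a single gene. RefSeq lists 52 of the 56 as protein coding, and the others are the antisense RNA H1-10-AS1 and the pseudogenes H1-9P, H2AC5P and H4C10P. H3-3B and H3-5 had no probe set of their own here. A filter on low signals, which kept a probe set whose mean log2 signal over all arrays reached 6.05, left 25 of the 56, all protein coding. They comprise 3 H1, 8 H2A, 7 H2B, 3 H3 and 4 H4 genes.

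The signals come from 9 Affymetrix arrays of A549 cells, a lung adenocarcinoma line. The cells were grown in medium with 10% serum and no treatment. MED23 was targeted by RNA interference on 3 arrays (si-Med23, oligos A, B and C) and ELK1 on 3 arrays (si-Elk1, oligos A, B and C), and the last 3 came from cells with a control oligo (si-Ctrl). MED23 belongs to Mediator, the bridge between activators bound to DNA and RNA polymerase II. ELK1, of the ETS family, is an activator that ERK phosphorylates downstream of Ras. The knockdown replicates are different oligos, described as different cell lines, and nothing says that the control arrays came from separate cultures, so the p-values rest on differences among these arrays alone, and those may be technical. Each array read RNA from a whole culture, so fewer cells of a kind and less RNA per cell cannot be told apart. How fully the labelling reached mRNAs without a poly(A) tail was not tested, so a cluster gene's signal may not follow its total mRNA.

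MED23 had log2 signals of 6.79, 6.19 and 7.06 in si-Med23, 8.87, 9.02 and 8.18 in si-Elk1, and 9.27, 9.05 and 9.08 in si-Ctrl. It was lower in si-Med23 than in si-Ctrl by a log2 fold change of -2.46 (limma, adjusted p = 0.00184). ELK1 was lower in si-Elk1 than in si-Ctrl by -2.07 (limma, adjusted p = 0.00684). All 5 epithelial markers (KRT8, KRT18, KRT19, EPCAM, CDH1) passed the filter, against 1 of 5 fibroblast, 2 of 5 endothelial and 2 of 3 measured blood markers. The summed level of the epithelial markers was log2 16.002 to 16.51 in si-Med23, 15.72 to 16.03 in si-Elk1 and 15.61 to 15.75 in si-Ctrl, and that of the blood markers, mostly CD14, was 9.01 to 9.99, 9.71 to 9.89 and 8.13 to 8.51 in the same groups. Fibroblast markers summed to 7.98 to 8.51, 8.77 to 9.25 and 8.20 to 8.38, and endothelial markers to 7.99 to 8.41, 8.12 to 8.99 and 8.24 to 8.51. The part of these levels in the results on histone genes was not tested.

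Of the 25 histone genes tested, 13 were higher in si-Med23 than in si-Ctrl on the deposited scale and 0 were lower (limma, adjusted p under 0.05). Among all 12616 genes tested, 20.3% were called higher and 19.5% lower, 39.8% in either direction. At an adjusted p under 0.10 the counts were 14 and 0, where 27.1% of all genes were called higher and 23.3% lower (limma). The median log2 fold change of the 25 was 0.49, with a range from -0.13 to 1.35, against a median of 0.09 over all genes tested. In 15 of the 25, every si-Med23 array lay above every si-Ctrl array, which held for 31.7% of all genes tested, and in 0 every one lay below, which held for 25.6%. The called genes comprised 2 of 3 H1, 4 of 8 H2A, 5 of 7 H2B, 2 of 3 H3 and 0 of 4 H4 genes. They comprised 2 of the 6 replacement variants and 11 of the other 19. Leaving out any array kept the count between 10 and 14. These directions hold for arrays scaled to a common trimmed mean, and scaling on the poly-A spikes turned them, as given below.

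**Figure D1:**
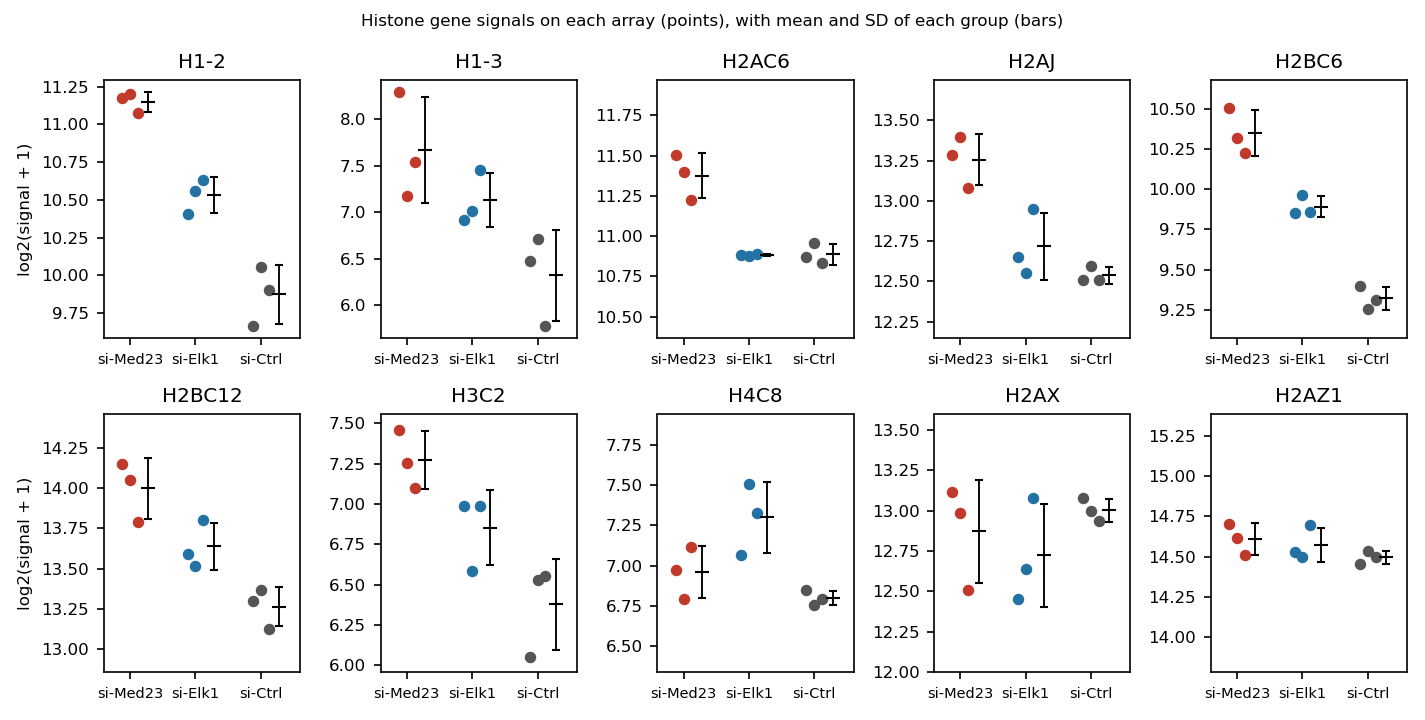
Log2(signal + 1) of 10 histone genes on each of the 9 arrays. Points are arrays in the order oligo A, B, C (si-Ctrl: replicate 1, 2, 3) and bars give each group's mean and SD. On the deposited scale the si-Med23 points of H1-2, H1-3, H2AC6, H2AJ, H2BC6, H2BC12 and H3C2 lie above all si-Ctrl points, while those of H4C8, H2AX and H2AZ1 overlap them.

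The linker histone genes H1-3 and H1-2 had the highest log2 fold changes of the 25 in si-Med23. H1-2, which encodes a somatic H1, had log2 signals of 11.17, 11.20 and 11.07 in si-Med23, 10.40, 10.56 and 10.64 in si-Elk1, and 9.66, 10.06 and 9.90 in si-Ctrl. The 3 groups did not overlap, and H1-2 was 2.42-fold higher in si-Med23 than in si-Ctrl (log2 fold change 1.28 ± 0.13 SE, limma adjusted p = 0.00184). H1-3, another somatic H1, had log2 signals of 8.30, 7.18 and 7.54 in si-Med23, 6.92, 7.02 and 7.46 in si-Elk1, and 6.47, 6.71 and 5.77 in si-Ctrl. Its arrays spread over more than a log2 unit within si-Med23, and its log2 fold change was 1.35 ± 0.33 SE (limma adjusted p = 0.0133). H1-10, the replacement variant H1.10, had 11.66, 11.42 and 11.45 in si-Med23 against 11.19, 11.05 and 11.28 in si-Ctrl. Its arrays did not overlap, but the log2 fold change of 0.34 ± 0.15 SE did not pass the threshold (limma adjusted p = 0.0992).

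Among H2A genes the 4 called were H2AC14, H2AC17, H2AC6 and the replacement variant H2AJ. H2AC6 had log2 signals of 11.50, 11.40 and 11.23 in si-Med23, 10.88, 10.88 and 10.89 in si-Elk1, and 10.87, 10.96 and 10.83 in si-Ctrl. The si-Elk1 arrays fell within the si-Ctrl range while all si-Med23 arrays lay above it, with a log2 fold change of 0.49 ± 0.11 SE for si-Med23 against si-Ctrl (limma adjusted p = 0.0106). H2AC14 had 8.60, 8.91 and 8.76 in si-Med23 against 8.05, 8.03 and 8.26 in si-Ctrl (log2 fold change 0.64, limma adjusted p = 0.00576). H2AC17 had 8.22, 8.16 and 8.05 against 7.76, 7.52 and 7.89 (log2 fold change 0.42, limma adjusted p = 0.0409). The call of H2AC17 was lost without si-Ctrl replicate 1 or 2 or without any of the si-Med23 oligos, with an adjusted p of up to 0.136.

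H2AJ encodes H2A.J, a variant known to accumulate in senescent human fibroblasts. Its log2 signals were 13.28, 13.40 and 13.08 in si-Med23, 12.65, 12.55 and 12.95 in si-Elk1, and 12.51, 12.60 and 12.51 in si-Ctrl. It was 1.64-fold higher in si-Med23 than in si-Ctrl (log2 fold change 0.72 ± 0.14 SE, limma adjusted p = 0.00608). Its probe sets disagreed, as tested over all 27307 probe sets past the filter, of which 14.8% were called higher and 19.7% lower in si-Med23. A second bright probe set gave a log2 fold change of 0.62. Of its dim probe sets, with mean log2 signals of 6.33 and 6.18, the first gave -1.33 and the second 0.42 (limma over probe sets, adjusted p = 0.0443 and 0.445). The mean over all H2AJ probe sets gave 0.11 and lost the call.

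H2AX, the variant phosphorylated beside DNA breaks, and H2AZ1 and H2AZ2, the variants placed at promoters, did not pass the threshold. Their log2 fold changes in si-Med23 against si-Ctrl were -0.13 ± 0.20, 0.11 ± 0.11 and 0.20 ± 0.13 (SE). The chosen probe set of H2AX read 13.12, 12.99 and 12.51 in si-Med23 against 13.08, 13.00 and 12.94 in si-Ctrl, so that the groups overlapped. A pair of dimmer H2AX probe sets were higher in si-Med23, by 0.54 and 0.65 (limma over probe sets, adjusted p = 0.0378 and 0.0484). A pair of other H2AZ2 probe sets were lower, by -0.72 each (adjusted p = 0.0176 and 0.00933). The remaining H2AZ2 probe set gave 0.04 (limma over probe sets, adjusted p = 0.877). H2AC25, the remaining H2A gene tested, had a log2 fold change of 0.35 ± 0.19 SE and did not pass the threshold.

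H2B genes held the most calls. H2BC12L, an H2B gene on chromosome 21, had log2 signals of 12.09, 12.01 and 11.77 in si-Med23, 10.90, 11.11 and 11.15 in si-Elk1, and 10.86, 10.88 and 10.76 in si-Ctrl. It was 2.18-fold higher in si-Med23 than in si-Ctrl (log2 fold change 1.12 ± 0.13 SE, limma adjusted p = 0.00184). H2BC6 had 10.51, 10.32 and 10.22 in si-Med23, 9.85, 9.97 and 9.86 in si-Elk1, and 9.40, 9.26 and 9.31 in si-Ctrl, with no overlap between any of the groups. It was 2.04-fold higher in si-Med23 than in si-Ctrl (log2 fold change 1.03 ± 0.12 SE, limma adjusted p = 0.00184). H2BC12, among the brightest histone probe sets, had 14.15, 14.05 and 13.79 in si-Med23, 13.59, 13.52 and 13.80 in si-Elk1, and 13.30, 13.37 and 13.13 in si-Ctrl (log2 fold change of si-Med23 against si-Ctrl 0.73 ± 0.14 SE, limma adjusted p = 0.00582).

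H2BC5 and H2BC9 were also higher in si-Med23 than in si-Ctrl, by 0.72 and 0.70 (limma adjusted p = 0.00656 and 0.0199). A second H2BC5 probe set gave 0.05, and the mean of both gave 0.38 and lost the call (limma adjusted p = 0.103). The call of H2BC9 was lost without si-Med23 oligo A and without replicate 1 or 3 of si-Ctrl, with an adjusted p of up to 0.0626. H2BC21 and H2BC14 had log2 fold changes of 0.43 ± 0.20 and 0.14 ± 0.31 (SE), and their groups overlapped.

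H3C2, a cluster H3 gene, had log2 signals of 7.46, 7.25 and 7.10 in si-Med23, 6.99, 6.59 and 6.99 in si-Elk1, and 6.05, 6.53 and 6.55 in si-Ctrl. All 3 groups were separate, and the log2 fold change of si-Med23 against si-Ctrl was 0.89 ± 0.19 SE (limma adjusted p = 0.00746). H3-3A encodes the replacement variant H3.3. It had 8.15, 8.17 and 8.25 in si-Med23, 7.75, 7.72 and 7.20 in si-Elk1, and 7.47, 7.75 and 7.75 in si-Ctrl. Its log2 fold change was 0.54 ± 0.17 SE (limma adjusted p = 0.0331), and the call was lost without any single array of si-Med23 or si-Ctrl, with an adjusted p of up to 0.11. The 8 probe sets annotated to several H3.3 genes had log2 fold changes from -0.07 to 0.27 in si-Med23 against si-Ctrl. By limma over probe sets 0 of the 8 were called, where 14.8% of all probe sets were higher and 19.7% lower. All 8 were brighter, with mean log2 signals from 9.47 to 14.9 against 7.80 for the chosen H3-3A probe set. H3C6 had 0.10 ± 0.26 SE and overlapping groups.

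None of the 4 H4 genes tested was called by limma in si-Med23, where 20.3% of all genes tested were called higher and 19.5% lower. Their log2 fold changes were 0.52 for H4C4, 0.34 for H4C5, 0.19 for H4C11 and 0.16 for H4C8. H4C11 had log2 signals of 9.18, 8.71 and 7.58 in si-Med23 and 8.42, 8.53 and 7.97 in si-Ctrl, a spread within groups above the difference between them. H4C8 had 6.97, 6.79 and 7.11 in si-Med23 and 6.85, 6.76 and 6.79 in si-Ctrl. Of the 21 probe sets past the filter that are annotated to several histone genes, 5 were higher and 0 lower in si-Med23 than in si-Ctrl, where 14.8% of all probe sets were higher and 19.7% lower. In si-Elk1 0 were higher and 1 lower, where 1.34% of all probe sets were higher and 0.45% lower (limma over probe sets). Of the 3 probe sets past the filter that are annotated to the same 14 H4 genes, 1 was called. It is the brightest and read 14.62, 14.88 and 14.53 in si-Med23, 12.73, 12.26 and 12.56 in si-Elk1, and 12.18, 13.08 and 12.44 in si-Ctrl. It was higher in si-Med23 than in si-Ctrl by 2.11 ± 0.24 SE on the log2 scale (limma over probe sets, adjusted p = 0.00294). The others gave 0.66 and 0.04 (limma over probe sets, adjusted p = 0.267 and 0.912).

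Of the 13 genes called in si-Med23, 10 had their lowest si-Med23 signal on the array of oligo C, 2 on that of oligo A and 1 on that of oligo B. Among all 2561 genes called higher in si-Med23, the shares were 27.8% for oligo C, 42.4% for oligo A and 29.9% for oligo B. MED23 itself had its highest signal of the 3 in oligo C, 7.06 against 6.79 in oligo A and 6.19 in oligo B. The median log2 signal of the tested histone genes was 9.68 in oligo A, 9.39 in oligo B and 9.14 in oligo C. It was thus highest in oligo A, while MED23 was lowest in oligo B. The poly-A spikes averaged a log2 signal of 9.08 in oligo C, 9.31 in oligo A and 9.26 in oligo B, and its part in this pattern was not tested.

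In si-Elk1 fewer histone genes passed the test. Of the 25, 2 were higher than in si-Ctrl and 0 were lower, where 3.07% of all genes tested were called higher, 1.19% lower and 4.26% in either direction (limma). At an adjusted p under 0.10 the counts were 4 and 0, where 7.94% of all genes were called higher and 3.99% lower (limma). The median log2 fold change was 0.29, from -1.11 to 0.81, against 0.05 over all genes tested. In 12 of the 25, every si-Elk1 array lay above every si-Ctrl array, which held for 21.1% of all genes tested, and 0 lay below, which held for 15.1%. The called genes were H1-2, at 0.66 ± 0.13 SE (limma adjusted p = 0.0349), and H2BC6, at 0.57 ± 0.12 SE (limma adjusted p = 0.0368).

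Both calls in si-Elk1 were lost without any single si-Elk1 or si-Ctrl array, with an adjusted p of up to 0.108 for H1-2 and 0.12 for H2BC6. H1-2 was also lost without si-Med23 oligo A, and H2BC6 without si-Med23 oligo B. H1-3, H3C2 and H2AC17 had log2 fold changes of 0.81, 0.48 and 0.52 in si-Elk1 with no overlap with si-Ctrl, and did not pass the threshold. The replacement variants H2AJ, H2AX, H2AZ1, H2AZ2, H3-3A and H1-10 ranged from -0.28 to 0.18. H4C5 had log2 signals of 3.77, 5.71 and 6.59 in si-Elk1 against 6.29, 6.24 and 6.87 in si-Ctrl, which overlap, and a log2 fold change of -1.11 ± 0.60 SE.

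**Figure D2:**
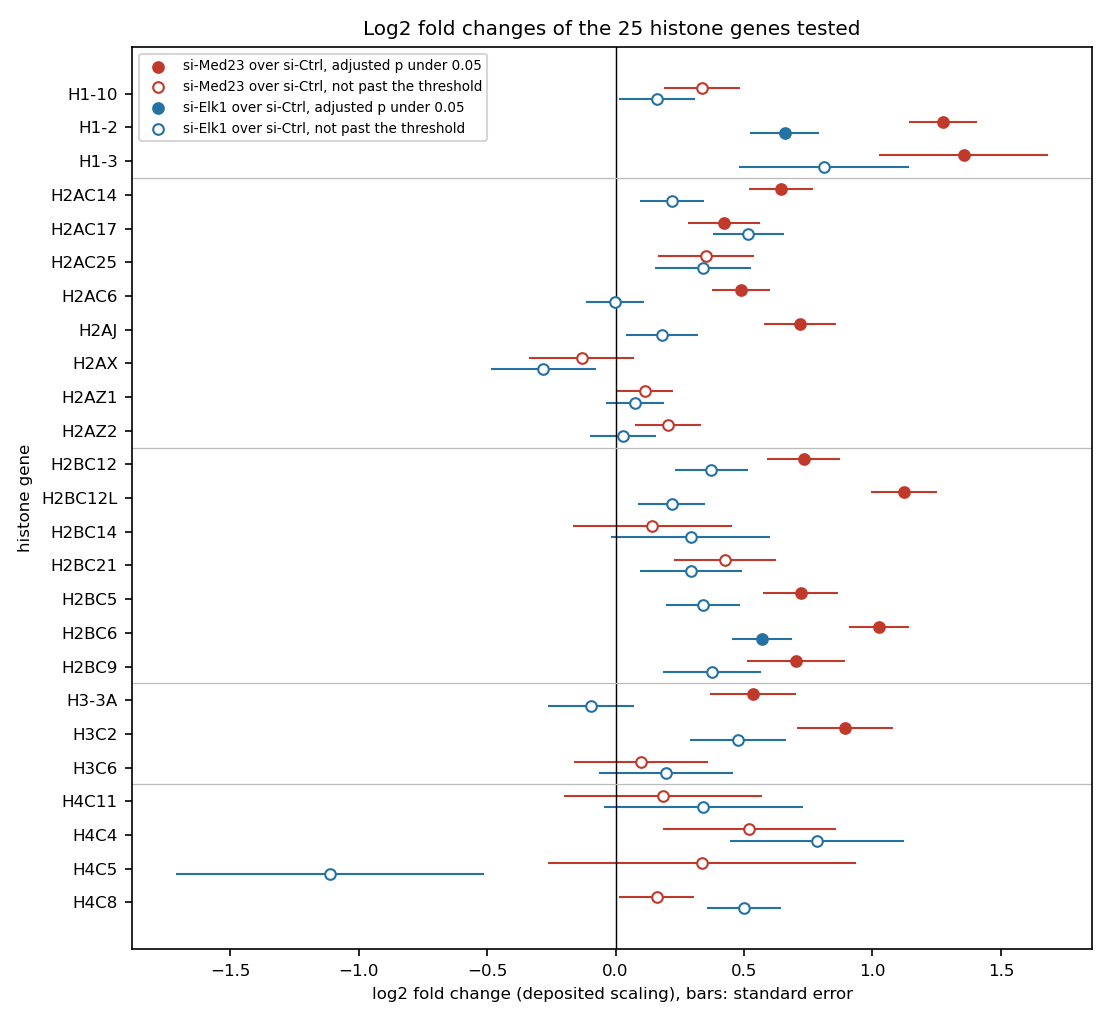
Log2 fold changes of the 25 histone genes tested, si-Med23 over si-Ctrl (red) and si-Elk1 over si-Ctrl (blue), on the deposited scale, grouped by family. Bars are standard errors and filled points passed the adjusted p threshold. In si-Med23 13 points are filled, from 0.42 for H2AC17 to 1.35 for H1-3, and in si-Elk1 2 are filled. All the filled points turn negative when the arrays are scaled on the poly-A spikes, except that H1-2 stays at 0.02 in si-Elk1.

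The comparisons with si-Ctrl share its 3 arrays, so the knockdowns were also set against each other. Of the 25 genes, 7 were higher in si-Med23 than in si-Elk1 (H1-2, H2AC14, H2AC6, H2AJ, H2BC12L, H2BC6 and H3-3A) and 0 were lower, where 9.54% of all genes tested were called higher, 12.2% lower and 21.7% in either direction (limma). At an adjusted p under 0.10 the counts were 9 and 0, where 15.4% of all genes were called higher and 19.1% lower (limma). The median log2 fold change was 0.33, against -0.03 over all genes tested. H2BC12L had the highest of the called differences, 0.91 ± 0.13 SE (limma adjusted p = 0.00591), and it was the only call of the 7 that stayed without every array in turn. H1-2 was higher by 0.62 ± 0.13 SE (limma adjusted p = 0.0175) and lost its call without si-Med23 oligo B or si-Elk1 oligos A or B. The count was 1 without si-Med23 oligo B, si-Elk1 oligo A or si-Elk1 oligo B, 3 without si-Med23 oligo A, and 9 without si-Elk1 oligo C.

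The scale on which the arrays are compared set the direction. The deposited signals have the same trimmed mean on every array, which removes any difference in the total. Poly-A spikes, bacterial RNAs with a poly(A) tail, are mixed into a sample ahead of labelling. Over their probe sets the log2 signal averaged 9.08 to 9.31 in si-Med23, 7.92 to 8.46 in si-Elk1 and 7.43 to 7.82 in si-Ctrl. Scaling each array on them moved every si-Med23 log2 fold change by -1.61 and every si-Elk1 one by -0.64. After that, 21 of the 25 histone genes were lower in si-Med23 than in si-Ctrl and 0 higher, where 94.2% of all genes tested were lower, and 6 were lower in si-Elk1 and 0 higher, where 38.8% of all genes were lower (limma).

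Scaling on the hybridization controls, which are added after labelling, gave 3 histone genes higher and 2 lower in si-Med23, where 3.24% of all genes were higher and 41.3% lower. Both of these scalings move all genes of a comparison by the same amount. They leave as it is the gap between the histone median and that of all genes tested, 0.40 in si-Med23 and 0.24 in si-Elk1. Quantile normalization gave 13 higher and 0 lower in si-Med23.

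**Figure D3:**
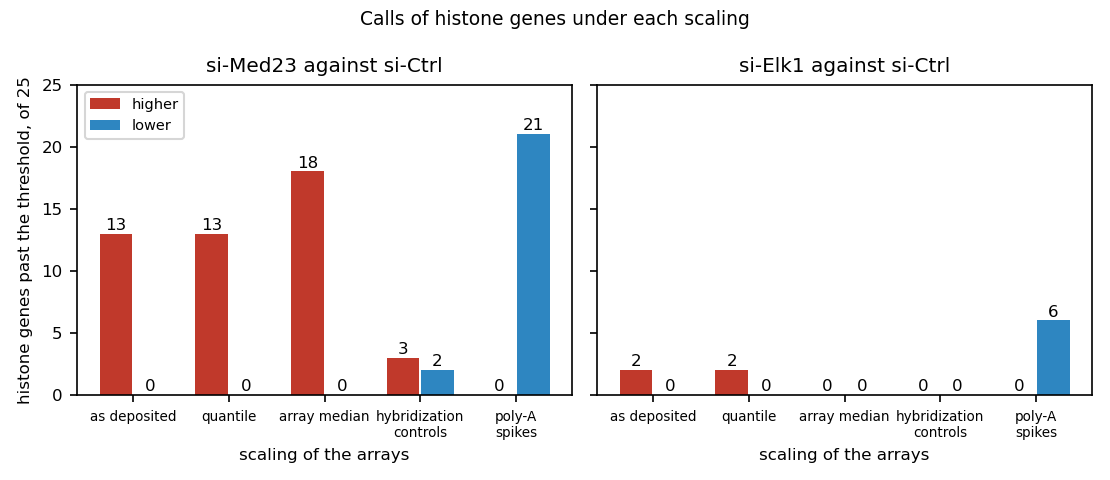
Number of the 25 histone genes tested that were higher (red) or lower (blue) than in si-Ctrl at an adjusted p under 0.05, for each way of scaling the arrays, in si-Med23 (left) and si-Elk1 (right). In si-Med23 the deposited scale gives 13 higher and 0 lower, and scaling on the poly-A spikes gives 0 higher and 21 lower.

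Histone genes of a family are nearly identical, and probe sets whose names end in _x_at or _s_at hold probes that match more than 1 transcript, so their signal can come from several genes. Of the 25 genes tested, 15 were read by such a probe set, as were 9 of the 13 called in si-Med23. The 4 called genes read by other probe sets were H1-2, H1-3, H2AC17 and H2BC12. When all such probe sets were left out, 13 histone genes were tested. H1-2, H1-3 and H2BC12 were then higher in si-Med23, H2AJ and H2AZ2 were lower by -1.33 and -0.72 through their remaining probe sets, and H2AC17 lost its call. With these probe sets out, 16% of all genes tested were higher and 20.4% lower, which is close to the 3 and 2 of 13.

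The 27 protein-coding histone genes under the filter had log2 signals from 1.07 to 7.25 and were not tested. In 2 of them, H2BC3 and H2BC13, every si-Med23 array lay above every si-Ctrl array, and in 3 others, H1-1, H1-6 and H2BC4, every one lay below. These shares are close to those of all 7159 genes under the filter, of which 6.36% lay above and 10.1% below. H2BC3 had 5.63, 6.70 and 5.57 in si-Med23, 4.52, 6.14 and 4.52 in si-Elk1, and 4.19, 4.19 and 3.45 in si-Ctrl.

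Promoter sequences were taken from RefSeq (GRCh38.p14, 250 bases before to 50 after the annotated start) and matched 49 of the 52 protein-coding histone genes. The 4 promoters below are those of H1-2, H2BC6, H2BC12 and H2AC6, called higher in si-Med23, and show how the letters searched are placed. Capitals mark the octamer ATTTGCAT, the CCAAT letters and the TATA letters TATAAA, each searched on both strands. In the H2BC12 promoter the TATAAA matches on opposite strands overlap. TATAAA matches begin 189 bases before the start in H2BC6, 223, 221 and 27 in H2BC12, and 31 in H2AC6. Only exact letters were searched, anywhere in the window, so a match need not be a TATA box and other forms of it were not counted.
H1-2, chr6:26056421-26056720, minus strand: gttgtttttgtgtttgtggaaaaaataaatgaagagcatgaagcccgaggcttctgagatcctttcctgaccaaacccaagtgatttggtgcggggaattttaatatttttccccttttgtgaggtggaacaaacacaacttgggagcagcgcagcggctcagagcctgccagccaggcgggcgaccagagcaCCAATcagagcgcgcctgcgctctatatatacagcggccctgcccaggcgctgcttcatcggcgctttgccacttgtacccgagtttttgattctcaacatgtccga
H2BC6, chr6:26183511-26183810, plus strand: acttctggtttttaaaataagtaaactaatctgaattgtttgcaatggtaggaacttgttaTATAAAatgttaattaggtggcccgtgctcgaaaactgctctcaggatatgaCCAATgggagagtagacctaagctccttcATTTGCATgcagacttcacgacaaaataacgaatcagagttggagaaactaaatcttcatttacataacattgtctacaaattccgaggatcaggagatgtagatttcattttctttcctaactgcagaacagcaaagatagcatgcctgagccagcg
H2BC12, chr6:27146809-27147108, minus strand: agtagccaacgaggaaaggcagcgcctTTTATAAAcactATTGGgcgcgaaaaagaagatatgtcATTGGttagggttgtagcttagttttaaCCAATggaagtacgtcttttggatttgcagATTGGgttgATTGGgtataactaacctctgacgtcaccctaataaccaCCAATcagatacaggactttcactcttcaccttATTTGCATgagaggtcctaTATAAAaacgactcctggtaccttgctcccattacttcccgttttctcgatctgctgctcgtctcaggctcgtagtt
H2AC6, chr6:26123922-26124221, plus strand: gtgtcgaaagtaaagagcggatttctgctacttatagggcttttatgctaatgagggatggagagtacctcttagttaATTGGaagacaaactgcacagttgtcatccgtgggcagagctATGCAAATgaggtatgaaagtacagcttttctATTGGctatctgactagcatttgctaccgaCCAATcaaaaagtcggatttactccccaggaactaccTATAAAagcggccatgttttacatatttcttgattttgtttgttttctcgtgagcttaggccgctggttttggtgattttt

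CCGGAAGT was searched on both strands as well, and is not in these 4. The octamer is the sequence read by OCT1 (POU2F1) in H2B promoters, CCAAT is read by NF-Y, and the TATA box by TBP. ATTTGCAT was found in 16 of the 49 histone promoters (32.7%), against 1.77% of 35116 promoters of the same length, in 10 of 13 H2B and 6 of 12 H2A promoters and in no H1, H3 or H4 promoter. CCAAT was found in 43 of 49 (87.8%, against 34.6%) and in 2 of 7 H4 promoters. TATAAA was found in 31 of 49 (63.3%, against 11.5%). CCGGAAGT, letters that ETS factors such as ELK1 can bind, was found in 0 of 49, against 4.14%. At that share few of 49 promoters would hold it, and a count of 0 says nothing of binding elsewhere.

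Among tested genes with a promoter, ATTTGCAT was present in 6 of the 12 called higher in si-Med23 and 2 of the 12 not called, CCAAT in 12 and 7, and TATAAA in 8 and 8. The CCAAT counts follow family, since all H2A, H2B and H3 promoters hold it, called or not. The tested genes without it are H4C4, H4C5, H4C8, H4C11 and H1-10. The ATTTGCAT counts follow family in part, as only H2A and H2B promoters hold it. The promoters of H2AC6 and H2BC4, H2AC14 and H2BC14, H2AC15 and H2BC15, and H2AC17 and H2BC17 overlap each other, so their matches are shared. By position, 16 of the 25 tested genes lie on chromosome 6, of which 10 were called in si-Med23, and 3 on chromosome 1, of which 1 was called. This is set against 13 of the 25 as a whole and 20.3% of all genes tested called higher, so chromosome 6 did not stand out among the histone genes.

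Genes that serve histone production are set here against all genes tested, of which 20.3% were higher and 19.5% lower in si-Med23 than in si-Ctrl, 39.8% in either direction. Of 8 tested genes of histone gene transcription, 3 were lower and 1 was higher (limma). NPAT, the coactivator of cluster histone genes that cyclin E and CDK2 phosphorylate, had log2 signals of 6.85, 7.42 and 6.69 in si-Med23, 7.64, 7.56 and 6.65 in si-Elk1, and 8.09, 8.02 and 8.41 in si-Ctrl. It was lower in si-Med23 than in si-Ctrl by -1.19 ± 0.29 SE on the log2 scale (limma adjusted p = 0.0136), and the call was lost without si-Ctrl replicate 3 (adjusted p = 0.051). CASP8AP2, also called FLASH, which works at histone loci and in the cutting of histone mRNA, had 7.34, 7.57 and 7.29 in si-Med23, 8.59, 8.42 and 7.84 in si-Elk1, and 9.00, 8.62 and 9.36 in si-Ctrl (log2 fold change of si-Med23 against si-Ctrl -1.59, limma adjusted p = 0.00277). The mean over its probe sets gave -0.63 and lost the call (limma adjusted p = 0.214). CCNE2, a cyclin E, was lower by -0.94 and CCNE1, the other cyclin E, higher by 0.43 (limma adjusted p = 0.0278 and 0.0258). Each of these cyclin calls was lost without 4 of the arrays in turn, and CCNE2 also after centring on the array median (limma adjusted p = 0.0703) and quantile normalization (limma adjusted p = 0.0642).

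Of 14 tested genes of histone mRNA processing and decay, 4 were lower in si-Med23 than in si-Ctrl and 0 higher (limma), with a median of -0.20. That is 4 of 14 against the 39.8% of all genes. At an unadjusted p under 0.05 (limma), 5 were lower and 1 higher. All of them had an adjusted p under 0.10, where 23.3% of all genes were lower and 27.1% higher. ERI1, the exonuclease that trims the stem-loop end, had log2 signals of 6.83, 8.33 and 8.20 in si-Med23, 9.11, 9.01 and 8.61 in si-Elk1, and 9.46, 9.47 and 9.95 in si-Ctrl (log2 fold change of si-Med23 against si-Ctrl -1.84, limma adjusted p = 0.00674). TUT7, a terminal uridylyltransferase, was lower by -1.27 and CPSF2, a subunit of the cleavage complex, by -1.28 (limma adjusted p = 0.00468 and 0.0059), and TUT7 lost its call with the mean of its probe sets (limma adjusted p = 0.0603). SLBP, the stem-loop binding protein, had 12.12, 12.05 and 11.90 in si-Med23 against 12.44, 12.41 and 12.35 in si-Ctrl, lower by -0.37 (limma adjusted p = 0.0276), and this call was lost without any si-Ctrl array or without si-Med23 oligo B or C, with an adjusted p of up to 0.0881. Centred on the array median, SLBP was at -0.14 (limma adjusted p = 0.359).

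**Figure D4:**
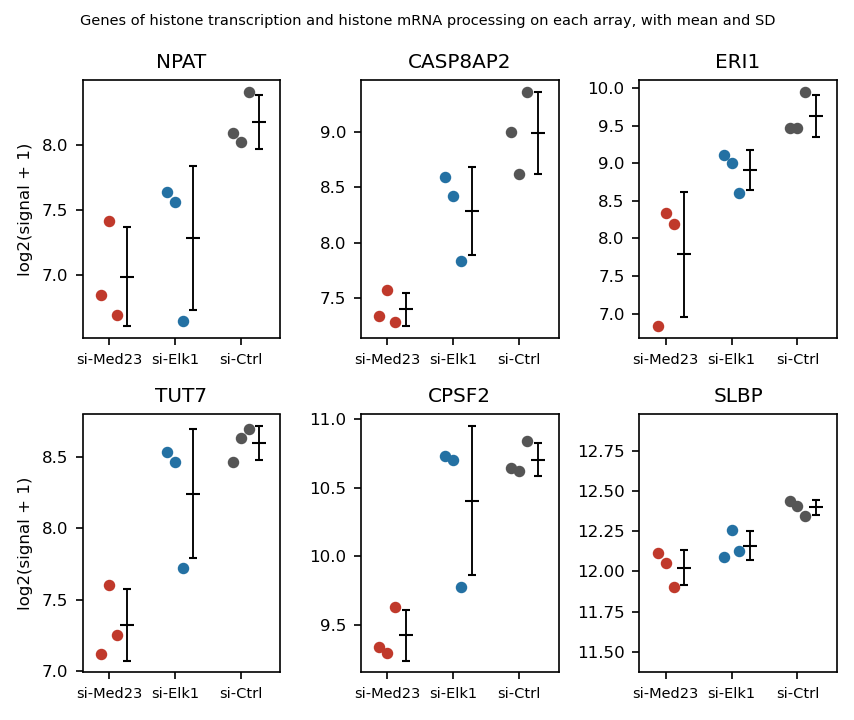
Log2(signal + 1) of NPAT, CASP8AP2, ERI1, TUT7, CPSF2 and SLBP on each of the 9 arrays. Points are arrays in the order oligo A, B, C (si-Ctrl: replicate 1, 2, 3) and bars give each group's mean and SD. In each panel all si-Med23 points lie below all si-Ctrl points.

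Of 25 tested histone chaperones and exchange factors, 6 were higher and 5 lower in si-Med23 than in si-Ctrl, close to the 20.3% and 19.5% of all genes tested. Their median was 0.11, against 0.09 over all genes tested. HAT1, which acetylates new H4, was lower by -0.91 ± 0.10 SE (limma adjusted p = 0.00184), with 11.23, 11.22 and 11.20 in si-Med23 against 12.20, 12.09 and 12.10 in si-Ctrl. ANP32E, which removes H2A.Z from nucleosomes, was lower by -1.42, and NAP1L4, a chaperone of H2A and H2B, higher by 0.70 (limma adjusted p = 0.00476 and 0.00342), but the mean of the NAP1L4 probe sets gave 0.09 (limma adjusted p = 0.726). RBBP4, a subunit of the assembly factor CAF-1, was higher by 0.68 through its brightest probe set, but the mean of its probe sets gave -0.15. Of the 3 histone variant genes with other names, MACROH2A2 was higher by 0.69 (limma adjusted p = 0.00754), while MACROH2A1, at 0.33, and CENPA, at 0.35, did not pass the threshold.

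Of 18 tested genes of DNA replication, which in S phase runs with histone synthesis, 2 were higher and 2 lower in si-Med23 than in si-Ctrl, a smaller share than the 39.8% of all genes tested, with a median of 0.15. MCM5, a subunit of the replicative helicase, was higher by 0.72, and POLE2 and POLA1, DNA polymerase subunits, lower by -1.18 and -1.45 (limma adjusted p = 0.00544, 0.00422 and 0.00763). Without probe sets ending in _x_at or _s_at, MCM5 stood at 0.35 and lost its call (limma adjusted p = 0.104). GINS2, another helicase factor, was higher by 0.52 through its brightest probe set (limma adjusted p = 0.0296), but the mean of its probe sets gave -0.03. In si-Elk1 against si-Ctrl none of the genes of these 5 lists passed the threshold (limma). Few would at the shares of all genes tested, 3.07% higher and 1.19% lower. In si-Med23 against si-Elk1 the calls, higher and lower, were 1 and 1 for transcription, 0 and 3 for processing, 6 and 4 for chaperones, 2 and 0 for the variants and 5 and 2 for replication, where 9.54% of all genes tested were higher and 12.2% lower. On the poly-A scale the genes given here as higher in si-Med23 than in si-Ctrl turned lower.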

How the data were processed

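The deposited values are probe set intensities on a linear scale, per the values, and their 2% trimmed mean is about 500 on every array. RMA and MAS5 are both named in the submitters' processing notes, without versions, and a genome build was not given in the sources used here. Array medians ran from 64.9 to 88.2, and precision is limited by how few arrays there are.

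The platform annotation gave the gene names (41091 probe sets with 1 gene, 1801 with several), and RefSeq GRCh38.p14 the biotypes and promoters. Each gene was represented by its brightest probe set on average among those of 1 gene. The deposited intensities were analysed as log2(value + 1), which understates fold changes of dim genes. The filter was the median over probe set means, log2 6.05 or a signal of 65.4, and 12616 genes passed.

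All 9 arrays entered 1 two-sided limma fit (lmFit and eBayes, limma 3.58.1, R 4.3.3). P-values were adjusted per contrast by Benjamini-Hochberg over the genes, or over the probe sets, that passed the filter, and 0.05 was the threshold. The fit was tested on simulated data. Groups came from the labels. Named were all replacement variants, up to 6 tested members per family by p, the targeted genes and up to 4 members of each list by p. H2BC3, H1-1, H1-6, H2BC4, H2BC13 and the probe sets of several genes were named after their values were seen. The histone genes and the gene lists were chosen with earlier results of these data known. Alternatives were other scalings, filters, probe set rules, pseudocounts, priors, thresholds, a replicate block and each array left out.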

Additional observations from a re-analysis of the deposited data

Results flagged for a closer look

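Some probe sets are annotated to several histone genes at once and entered no gene's test. Of 28 such probe sets 21 passed the filter, and in si-Med23 against si-Ctrl 5 were higher and 0 lower on the deposited scale (limma over all probe sets, of which 14.8% were called higher and 19.7% lower). They are given here as signal outside the gene tests.

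Of 3 probe sets annotated to the same 14 H4 genes, 1 had a log2 fold change of 2.11, and the others, not called, 0.66 and 0.04. Of 3 probe sets of H2AC18 and H2AC19, 2 were higher, by 0.94 (11.87, 11.81 and 11.60 in si-Med23 against 10.79, 10.82 and 10.85 in si-Ctrl) and by 0.90 (10.73, 10.71 and 10.43 in si-Med23 against 9.74, 9.48 and 9.96 in si-Ctrl). The third, with a mean log2 signal of 6.34, gave -0.48 (limma adjusted p = 0.313). Of 3 probe sets of 5 H2B genes (H2BC4, H2BC6, H2BC7, H2BC8 and H2BC10), 1 was higher by 0.52 (limma adjusted p = 0.0463), and the others gave 0.33 and -0.43 (limma adjusted p = 0.233 and 0.122). The probe set of 10 H3 genes was higher by 0.45 (limma adjusted p = 0.0382). In si-Elk1 against si-Ctrl 1 of the 21 was called, a probe set of 6 H2A genes that was lower by -0.71 (limma adjusted p = 0.048), and another probe set of the same 6 genes gave 0.32 (limma adjusted p = 0.439). Which of the genes sharing a probe set gave the signal was not tested.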

How the results depend on the processing

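Array scaling moved the results most, by construction alike for all genes of an array, and how much spike was added per cell was not tested. Scaled on the poly-A spikes, si-Med23 against si-Ctrl gave 0 higher and 21 lower with a median of -1.12. The si-Elk1 arrays against si-Ctrl gave 0 higher and 6 lower with a median of -0.35. For si-Med23 against si-Elk1 the counts were 0 higher and 17 lower with a median of -0.65. Of all genes tested, 94.2%, 38.8% and 81% were lower in these comparisons, in the same order. Listed next are only genes called on the deposited or the poly-A scale, and uncalled genes that turned are left out. The log2 fold changes that turned in si-Med23 against si-Ctrl were then H1-3 -0.26, H1-2 -0.34, H2BC12L -0.49, H2BC6 -0.58, H3C2 -0.72, H2BC12 -0.88, H2AJ, H2BC5 and MCM5 -0.89, H2BC9 and NAP1L4 -0.91, MACROH2A2 -0.92, RBBP4 -0.93, H2AC14 -0.97, H3-3A and ELK1 -1.07, H4C4 and GINS2 -1.09, H2AC6 -1.12, H2BC21 and CCNE1 -1.18, H2AC17 -1.19, H2AC25 and CENPA -1.26, H1-10 -1.27, MACROH2A1 -1.28, H2AZ2 -1.41, H4C11 -1.42, H4C8 -1.45, H2BC14 -1.47, H2AZ1 -1.50 and H3C6 -1.51. In si-Elk1 against si-Ctrl those called on either scale were H2BC6 -0.0706, H2AZ1 -0.56 and H2AZ2 -0.61. In si-Med23 against si-Elk1 those called on either scale were H2BC12L -0.0662, H3-3A -0.34, H1-2 -0.35, H2AJ -0.43, H2AC6 -0.48, H2BC6 -0.51, H2AC14 and H3C2 -0.55, H2BC5 -0.59, H2BC12 -0.61, H2BC9 -0.65, H1-10 and H2AZ2 -0.80, H2AX -0.82, H2BC21 -0.84, H2AZ1 -0.93 and H2AC25 -0.96. Scaled on the hybridization controls, the same comparisons gave 3 higher and 2 lower (median -0.0087), 0 higher, and 1 higher and 1 lower (median 0.0108). Of all genes, 3.24%, 1.32% and 2.85% were higher and 41.3%, 2.05% and 31.3% lower, in the same order. On this scale, in si-Med23 against si-Ctrl, H2AC6 stood at -0.0087, CCNE1 at -0.065, H2AC17 at -0.0758 and H2AZ1 at -0.38. Centred on the array median, the median log2 fold change was 0.72 in si-Med23 against si-Ctrl, 0 genes were higher in si-Elk1 against si-Ctrl, and 15 were higher in si-Med23 against si-Elk1 (median 0.69). Of all genes, 1.89% were then higher in si-Elk1 against si-Ctrl and 37.1% in si-Med23 against si-Elk1. With probe sets ending in _x_at or _s_at left out, 3 of 13 genes were higher and 2 lower in si-Med23 against si-Ctrl (median 0.34), where 16% of all genes were higher and 20.4% lower. In si-Elk1 against si-Ctrl 1 was higher, where 2.32% of all genes were. In si-Med23 against si-Elk1 1 was higher (median -0.10), where 7.61% of all genes were. H2AJ then stood at -1.33 in si-Med23 against si-Ctrl and -0.92 against si-Elk1, H2AZ2 at -0.72, RBBP4 at -0.66 and GINS2 at -0.0657. The mean of all probe sets gave RBBP4 -0.15, GINS2 -0.0285 and 1 gene higher in si-Elk1 against si-Ctrl, where 1.82% of all genes were. With no filter the si-Med23 median was 0.21, 0 genes were higher in si-Elk1 against si-Ctrl and 1 in si-Med23 against si-Elk1. Of all genes without a filter, 0.521% and 2.1% were higher in those comparisons. A stricter filter gave a si-Med23 median of 0.57. At an adjusted p of 0.01 the counts of higher genes were 8, 0 and 1, against 8.08%, 0.531% and 1.66% of all genes. At 0.10 si-Elk1 had 4, against 7.94% of all genes. Fitted on only the 6 arrays compared, 1 gene was higher in si-Elk1 against si-Ctrl and 2 in si-Med23 against si-Elk1. The shares of all genes were 2.75% and 3.55%. With each array left out in turn, higher genes numbered 10 to 14 in si-Med23 against si-Ctrl (median 0.44 to 0.59), 0 to 2 in si-Elk1 against si-Ctrl (median 0.17 to 0.36) and 1 to 9 in si-Med23 against si-Elk1 (median 0.16 to 0.42), with 0 lower in each. Shares of all genes called higher ran from 11.9% to 24.5%, 0.737% to 2.9% and 2.81% to 16.2% in the same order. Same-numbered arrays had correlations of deviations from -0.18 to 0.05, so the numbers give no pairing. The fit with the replicate number as a block gave 11, 0 and 2 higher genes, against 15.8%, 1.1% and 4.42% of all genes. Quantile normalization, a pseudocount of 16, raised low signals, array weights and a trended prior kept these counts within 1.5 times and the medians within the spread. Signal over background limits the 27 dim genes, for which no call was made.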
